A study of Mus musculus with 7 samples.

Results

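Cebpb, Klf9, Rhob, Vps37b, Vwa1, Adam28 and Ramp3 are 7 of the 27998 genes in the count tables, chosen by their UMI counts, which were higher at day 30 of infection than at day 7 in virus-specific helper T cells. A UMI (unique molecular identifier) marks 1 captured RNA molecule. The day 30 and day 7 values therefore chose the genes, and they are given here as a description with no test. Comparisons of genotype, of Il7r+ with Il7r- cells and of CD8-like with CD4-like cells were tested.

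The cells are spleen T cells of C57bl/6 mice given lymphocytic choriomeningitis virus, strain Armstrong (LCMV Arm), and their RNA was sequenced cell by cell. All 5 libraries of virus-specific cells hold CD44high cells that bound GP66:I-Ab, a class II tetramer with a viral peptide. Ox40-Cre+ Thpokfl/fl RosaYFP+ cells, in which Cre driven from the Ox40 (Tnfrsf4) locus of activated T cells removes Thpok, gave 1 library at day 30 and 1 at day 7 and are called Thpok-deleted. Ox40-Cre+ Thpokwt/wt RosaYFP+ cells, with the same Cre and reporter and intact Thpok, gave 1 library at day 30 and 1 at day 7 and are called Thpok-sufficient. The other GP66+ library is of day 7 and of wild type mice, with neither Cre nor reporter, and its label names a CD4+ gate. Another 2 wild type libraries of day 7 hold all CD44high cells, CD4+ and CD8+ sorted apart and mixed in equal parts (the total mix). No day 30 group has a second library, and the sources used here give neither the number nor the age of the animals behind a library.

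The 736 Thpok-deleted and 725 Thpok-sufficient cells of day 30 had a median of 2440 and 2017 UMIs, against medians of 5287 to 5900 in the 3 GP66+ libraries of day 7. Zbtb7b, the gene of Thpok, had 1 UMI in each Thpok-deleted library and 32 to 391 UMIs in the other GP66+ libraries. T cell marker genes summed to 3195 and 2426 CPM (counts per 1000000 UMIs of the library's cells) in Thpok-deleted and Thpok-sufficient cells of day 30. B cell markers summed to 53.7 and 38.0 CPM there. The Thpok-deleted library of day 30 also held erythroid RNA, whose 7 markers summed to 6240 CPM against at most 7.06 CPM in the other GP66+ libraries. The wild type GP66+ library and replicate 1 of the total mix stood apart in 10 of 4860 genes, all at least 4-fold lower in both. A further 1 gene was that far apart in opposite directions. Among the 10 was Jund, an AP-1 factor, at 59.0 and 61.9 CPM against 530 CPM or more elsewhere. Klf2 was also low in the wild type GP66+ library, at 33.5 CPM. Xist, the RNA that coats the inactive X chromosome of female cells, had 871 CPM in replicate 1 of the total mix and at most 0.0699 CPM in every other library. The labels used here give no sex. No pair of libraries shared more than 1.13% of the cell barcodes of the smaller one.

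Helper T cells expand and divide in the first week after infection, and a smaller memory pool stays on, part of it marked by Il7r, the receptor chain for the survival cytokine IL-7. The 7 genes belong to no single pathway. Cebpb encodes a basic leucine zipper factor of inflammatory and metabolic gene programmes, and Klf9 a zinc finger factor known as a target of glucocorticoid receptor. Rhob encodes an endosomal small GTPase that is known for fast induction by stress and growth signals, and Vps37b a subunit of ESCRT-I, the complex that sorts ubiquitinated membrane proteins to lysosomes. The products of the other genes act at or outside the cell surface. Vwa1 encodes an extracellular matrix protein, Adam28 a metalloprotease found on lymphocytes, and Ramp3 an accessory chain that turns the calcitonin receptor-like receptor into a receptor for adrenomedullin.

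The genes lie on 7 different chromosomes, so none neighbours another. RefSeq promoters (250 bases before to 50 after the start site, GRCm38.p6) were at hand for Cebpb, Klf9, Rhob and Ramp3. They are shown because these genes are among those chosen for higher counts at day 30. Vps37b, Vwa1 and Adam28 had none in the table used. Capitals mark 4 motifs searched on both strands. They are TGACG, the core site bound by CREB and ATF factors; TGANTCA, the AP-1 site; CCAAT; and CCACCC, bound by KLF factors.
Cebpb (chr2:167688665-167688964, plus strand): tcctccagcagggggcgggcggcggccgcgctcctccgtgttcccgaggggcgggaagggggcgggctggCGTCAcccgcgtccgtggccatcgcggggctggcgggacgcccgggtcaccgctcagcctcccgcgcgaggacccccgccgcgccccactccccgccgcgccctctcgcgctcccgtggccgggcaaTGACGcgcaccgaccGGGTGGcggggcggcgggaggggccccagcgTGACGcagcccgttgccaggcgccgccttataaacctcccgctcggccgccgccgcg
Klf9 (chr19:23140976-23141275, plus strand): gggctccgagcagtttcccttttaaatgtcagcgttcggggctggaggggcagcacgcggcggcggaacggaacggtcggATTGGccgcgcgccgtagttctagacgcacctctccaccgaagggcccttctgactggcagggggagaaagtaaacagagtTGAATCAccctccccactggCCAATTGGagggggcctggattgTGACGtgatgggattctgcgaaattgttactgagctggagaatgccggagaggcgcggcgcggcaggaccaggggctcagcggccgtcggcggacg
Rhob (chr12:8499960-8500259, minus strand): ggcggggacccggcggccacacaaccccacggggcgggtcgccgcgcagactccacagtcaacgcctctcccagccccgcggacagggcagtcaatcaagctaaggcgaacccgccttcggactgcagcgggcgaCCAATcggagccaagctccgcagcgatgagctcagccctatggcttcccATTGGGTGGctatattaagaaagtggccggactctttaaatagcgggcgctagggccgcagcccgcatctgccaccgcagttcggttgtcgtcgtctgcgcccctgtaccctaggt
Ramp3 (chr11:6658283-6658582, plus strand): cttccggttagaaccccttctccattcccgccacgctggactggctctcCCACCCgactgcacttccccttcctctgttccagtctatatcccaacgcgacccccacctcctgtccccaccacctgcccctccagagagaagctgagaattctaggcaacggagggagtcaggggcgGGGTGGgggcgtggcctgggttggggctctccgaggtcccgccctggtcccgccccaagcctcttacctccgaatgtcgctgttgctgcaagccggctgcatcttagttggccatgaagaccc

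TGACG lies in the promoters of Cebpb and Klf9, and in 20.8% of the 32851 promoters of the same length. TGANTCA is present in Klf9 alone of the 4, as TGAATCA, and in 7.81% of all promoters. CCAAT is present in Klf9 and Rhob (37.4% of all) and CCACCC in Cebpb, Rhob and Ramp3 (31.5% of all). In Klf9, CCAAT and its reverse complement overlap each other, and in Rhob the reverse complements of CCAAT and CCACCC do. No motif searched was shared by all 4 promoters, and a match describes the letters only.

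Cebpb (ENSMUSG00000056501; chr2:167688915-167690418, plus strand, GRCm38) had 136 UMIs in Thpok-deleted and 186 UMIs in Thpok-sufficient cells of day 30, or 63.5 CPM (95% interval 53.3 to 75.1) and 119.9 CPM (95% interval 103.3 to 138.4). Intervals are exact Poisson intervals and cover counting error only. At day 7 it had 2.94 CPM in Thpok-deleted, 4.89 CPM in Thpok-sufficient and 0.420 CPM in wild type GP66+ cells. Both day 30 libraries lay above all day 7 libraries, and the total mix was as low as GP66+ cells of day 7, at 0.628 and 2.57 CPM. The day 30 over day 7 ratio was 19.2 in Thpok-deleted cells and 44.4 in Thpok-sufficient cells, where day 7 is the mean of the Thpok-sufficient and wild type libraries. These ratios use TMM scaling, edgeR's correction for library make-up, and 0.5 CPM added to each value. Without the wild type library the Thpok-sufficient ratio was 25.8.

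Klf9 (ENSMUSG00000033863; chr19:23141226-23168134, plus strand) had 56 UMIs in Thpok-deleted and 61 UMIs in Thpok-sufficient cells of day 30, or 26.1 and 39.3 CPM. At day 7 it had 3.62 CPM in Thpok-deleted, 3.13 CPM in Thpok-sufficient and 1.68 CPM in wild type GP66+ cells. The days did not overlap, and the total mix had 3.01 and 1.33 CPM. The ratio of day 30 to day 7 was 6.69 in Thpok-deleted and 16.3 in Thpok-sufficient cells.

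Rhob (ENSMUSG00000054364; chr12:8497661-8500009, minus strand) had 100 UMIs in Thpok-deleted and 138 UMIs in Thpok-sufficient cells of day 30, or 46.7 and 88.9 CPM. At day 7 it had 0.791 CPM in Thpok-deleted cells (7 UMIs), 8.90 CPM in Thpok-sufficient cells and 3.08 CPM in wild type cells. Thpok-deleted cells were below Thpok-sufficient cells at both days, and the lowest day 30 library lay 5.23-fold above the highest day 7 library. The total mix had 1.54 and 2.16 CPM. The day ratio was 37.4 in Thpok-deleted cells and 16.3 in Thpok-sufficient cells.

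Vps37b (ENSMUSG00000066278; chr5:124004641-124032270, minus strand) had 2236 UMIs in Thpok-deleted and 2062 UMIs in Thpok-sufficient cells of day 30, or 1044 CPM (95% interval 1001 to 1088) and 1329 CPM (95% interval 1272 to 1387). It was also well measured at day 7, with 218 CPM in Thpok-deleted, 127.9 CPM in Thpok-sufficient and 204 CPM in wild type GP66+ cells. The total mix, at 37.0 and 47.0 CPM, was below each GP66+ library. The day ratio was 4.96 in Thpok-deleted and 9.83 in Thpok-sufficient cells.

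Vwa1 (ENSMUSG00000042116; chr4:155768149-155774698, minus strand) had 386 UMIs in Thpok-deleted and 289 UMIs in Thpok-sufficient cells of day 30, or 180.2 and 186 CPM. At day 7 it had 14.0 CPM in Thpok-deleted, 15.1 CPM in Thpok-sufficient and 5.60 CPM in wild type GP66+ cells. The intervals of Thpok-deleted and Thpok-sufficient cells overlapped at each day, and the total mix had 16.4 and 16.6 CPM, the level of the Cre-bearing GP66+ libraries of day 7. The day ratio was 12.9 in Thpok-deleted and 20.4 in Thpok-sufficient cells. Without the wild type library the Thpok-sufficient ratio was 13.9.

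Adam28 (ENSMUSG00000014725; chr14:68606027-68655842, minus strand) had 52 UMIs in Thpok-deleted and 37 UMIs in Thpok-sufficient cells of day 30, or 24.3 and 23.8 CPM. At day 7 it had 1.70 CPM in Thpok-deleted cells, 2.09 CPM in Thpok-sufficient cells and 0 UMIs in wild type cells, which allows up to 0.210 CPM (3 UMIs of the library total). The total mix had 2.32 and 1.66 CPM. The day ratio was 11.6 in Thpok-deleted cells and, against the Thpok-sufficient library of day 7 alone, 10.9 in Thpok-sufficient cells.

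Ramp3 (ENSMUSG00000041046; chr11:6658521-6677475, plus strand) was, like Rhob, lower in Thpok-deleted cells at both days. It had 60 UMIs in Thpok-deleted and 299 UMIs in Thpok-sufficient cells of day 30, or 28.0 CPM (95% interval 21.4 to 36.1) and 192.7 CPM (95% interval 171 to 216). At day 7 it had 1.36 CPM in Thpok-deleted cells, 17.0 CPM in Thpok-sufficient cells and 39.1 CPM in wild type cells. Its days overlapped, because wild type cells of day 7 lay above Thpok-deleted cells of day 30, and the total mix had 6.09 and 4.82 CPM. Within a genotype the day 30 library was the higher one, with day ratios of 15.8 in Thpok-deleted and 8.37 in Thpok-sufficient cells. Without the wild type library the Thpok-sufficient ratio was 12.8.

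**Figure D1:**
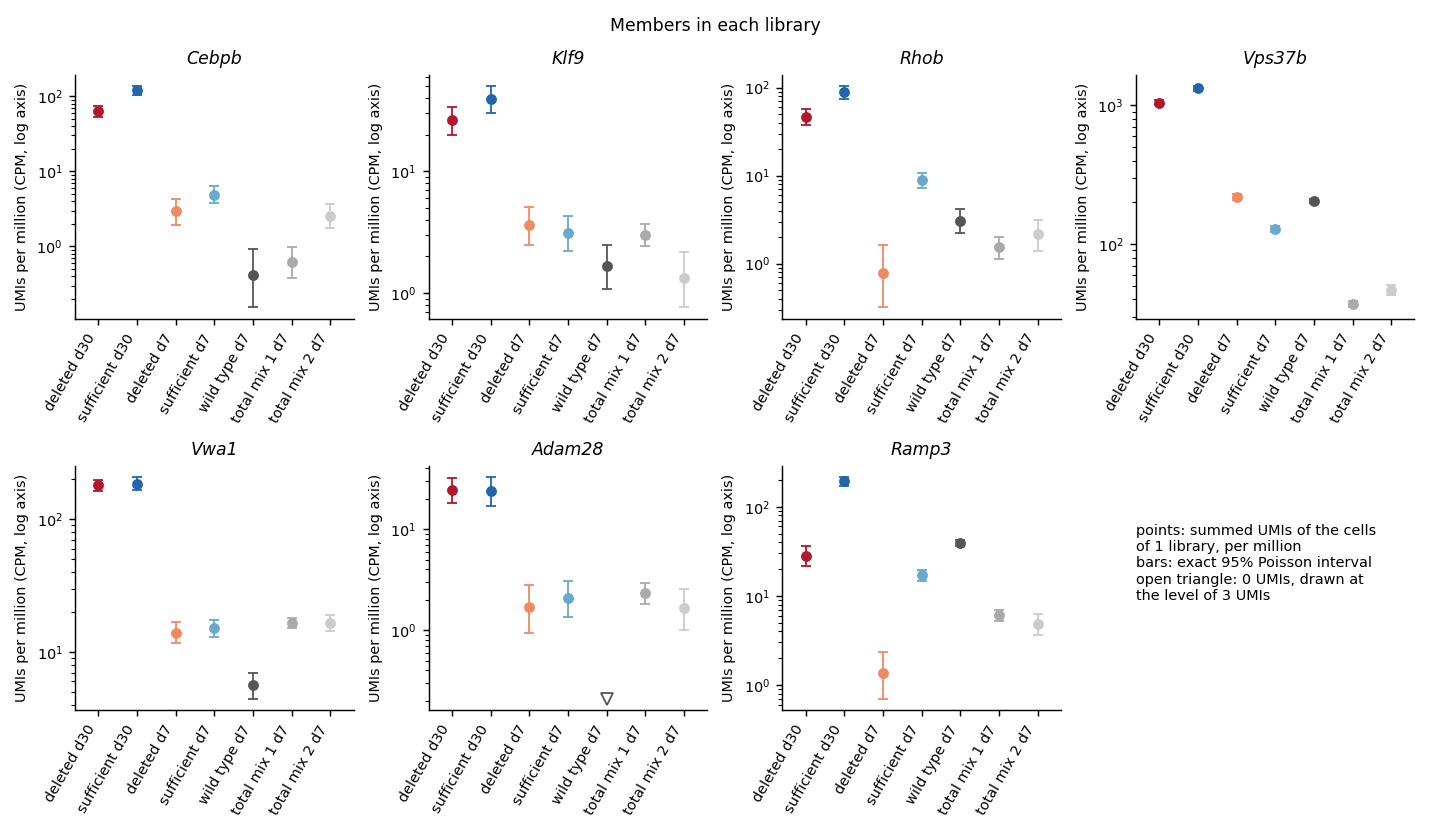
CPM of each member in the 7 libraries (log axis, points with exact 95% Poisson intervals, d30 and d7 for days 30 and 7; an open triangle marks 0 UMIs, drawn at the level of 3 UMIs). Both day 30 libraries lie above all others for each member except Ramp3, where Thpok-deleted cells of day 30 (28.0 CPM) lie below wild type cells of day 7 (39.1 CPM).

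Over the 7 members, 6 had their lowest day 30 library above their highest day 7 library. Of all 10949 genes compared, 2932 did so (26.8%), and since the days chose the members, nothing is read from that count. In Thpok-sufficient cells the members took ranks 2 to 55 of 10949 genes by day ratio, and in Thpok-deleted cells ranks 14 to 316. Scaling by library totals alone moved the median of all genes in Thpok-sufficient cells to -0.29 on the log2 scale, against -0.03 with TMM. The lowest member ratio there was then 6.77, against 8.37 with TMM.

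Detection per cell followed the same order after each cell was thinned to 1500 UMIs, which left out 46 Thpok-deleted and 153 Thpok-sufficient cells of day 30 and at most 1 cell of a day 7 GP66+ library. Vps37b was then detected in 74.2% of Thpok-deleted and 78.5% of Thpok-sufficient cells of day 30, against 26.8% of Thpok-deleted, 17.1% of Thpok-sufficient and 24.8% of wild type cells of day 7. Without thinning the shares were 86.3% and 83.6% at day 30, against 67.6%, 40.2% and 56.5% at day 7. Vwa1 was detected in 23.3% of Thpok-deleted and 25.7% of Thpok-sufficient thinned cells of day 30, against 1.22% to 2.20% at day 7. Cebpb was detected in 8.41% of Thpok-deleted and 16.1% of Thpok-sufficient cells of day 30, against at most 0.889% at day 7. Adam28 and Klf9 stayed rare, with 2.27% to 5.77% of thinned cells at day 30. Ramp3 was detected in 3.33% of Thpok-deleted and 22.9% of Thpok-sufficient thinned cells of day 30, against 0.0758% of Thpok-deleted, 2.48% of Thpok-sufficient and 5.97% of wild type cells of day 7. In CD8-like cells of the total mix the thinned shares of Ramp3 were 0.144% and 0.0934%.

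Cells of day 7 with 1500 to 3000 UMIs, the depth of most day 30 cells, had 232 CPM of Vps37b in Thpok-deleted, 194 CPM in Thpok-sufficient and 176 CPM in wild type cells, against 1302 and 1393 CPM in Thpok-deleted and Thpok-sufficient cells of the same depth at day 30. That bin holds 47 to 106 cells per day 7 library, which leaves few UMIs for the rarer members. In it Rhob had 33.6 CPM (95% interval 15.4 to 63.8) in Thpok-sufficient cells of day 7. That overlapped with Thpok-deleted cells of day 30, at 52.1 CPM (39.2 to 67.8). Cebpb had 22.4 CPM in Thpok-sufficient cells of day 7, against 74.8 CPM in Thpok-deleted cells of day 30. Vwa1 had 26.1 to 26.8 CPM at day 7, against 219 and 189 CPM in Thpok-deleted and Thpok-sufficient cells of day 30.

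Genotype was compared over the 5 GP66+ libraries, with day as a second term, by edgeR's quasi-likelihood test with Benjamini-Hochberg adjustment over all genes. None of the 7 members passed an adjusted p of 0.05, where 120 of 10812 genes did (1.11%), 79 of them higher (0.731%) and 41 lower (0.379%) in Thpok-deleted cells. Ramp3 came nearest, with a log2 fold change of -3.57 ± 0.51 (SE, edgeR adjusted p = 0.0561). Its levels did not overlap between genotypes within a day, at 28.0 CPM in Thpok-deleted against 192.7 CPM in Thpok-sufficient cells of day 30, and 1.36 CPM against 17.0 and 39.1 CPM at day 7. It passed with DESeq2 (adjusted p = 9.2e-11; 218 genes, 2.02%, were lower by that tool), with no filter on low counts (edgeR adjusted p = 8.9e-06), without the wild type library (edgeR adjusted p = 0.00084) and without the Thpok-sufficient library of day 7 (edgeR adjusted p = 0.0437). Without any one of the other GP66+ libraries 0 genes passed edgeR's test in all, with 1200 to 1844 at an unadjusted p under 0.05, and the adjusted p of Ramp3 was 0.146 to 0.442.

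Rhob had a genotype log2 fold change of -1.78 ± 0.66 (SE, edgeR adjusted p = 0.259), and passed with DESeq2 (adjusted p = 0.0459) and with no filter on low counts (edgeR adjusted p = 0.0230). Cebpb had -0.54 ± 0.88 (SE, edgeR adjusted p = 0.810), and passed in edgeR only without the wild type library, where it was -0.99 ± 0.21 (SE, adjusted p = 0.0418). Vps37b, Vwa1, Klf9 and Adam28 lay between -0.06 and 0.23, with standard errors of 0.28 to 1.03. A missed threshold does not show that these genes are equal between genotypes. Whether the genotype effect differed between the days was tested as an interaction, and no member passed, nor did any of 11338 genes (0%; 759 had an unadjusted p under 0.05, and DESeq2 called 6). For Vps37b that difference was -1.02 ± 0.43 (SE, edgeR adjusted p = 0.696).

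The Il7r+ class, cells with at least 1 Il7r UMI, held 175 of 736 Thpok-deleted and 370 of 725 Thpok-sufficient cells of day 30. Il7r+ cells were deeper, with a median of 2955 UMIs against 2282 in Il7r- cells of Thpok-deleted mice, and 2170.5 against 1929 in Thpok-sufficient mice. The members were high in both classes. Vps37b had 957 CPM in Il7r+ and 1080 CPM in Il7r- Thpok-deleted cells, and 1364 CPM in Il7r+ and 1291 CPM in Il7r- Thpok-sufficient cells. Vwa1 had 176 CPM in Il7r+ and 182 CPM in Il7r- Thpok-deleted cells, and 173 CPM in Il7r+ and 201 CPM in Il7r- Thpok-sufficient cells. The intervals of the 2 classes overlapped for both genes in both libraries.

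Cebpb had 54.6 CPM in Il7r+ and 67.2 CPM in Il7r- Thpok-deleted cells, and 119.4 CPM in Il7r+ and 120.4 CPM in Il7r- Thpok-sufficient cells. Rhob had 49.8 CPM in Il7r+ and 45.4 CPM in Il7r- Thpok-deleted cells, and 90.8 CPM in Il7r+ and 86.9 CPM in Il7r- Thpok-sufficient cells. For these genes the gap between genotypes was wider than the gap between classes. Adam28 stood at 20.9 to 25.7 CPM in all 4 sums, on 13 to 39 UMIs each.

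Klf9 and Ramp3 differed most between the classes, in opposite directions. Klf9 had 16.05 CPM in Il7r+ (10 UMIs) and 30.3 CPM in Il7r- Thpok-deleted cells, and 28.6 CPM in Il7r+ and 50.8 CPM in Il7r- Thpok-sufficient cells. Ramp3 had 51.4 CPM in Il7r+ and 18.4 CPM in Il7r- Thpok-deleted cells, and 205 CPM in Il7r+ and 179 CPM in Il7r- Thpok-sufficient cells. With the library as block, the Il7r+ over Il7r- log2 fold change was -0.78 ± 0.31 (SE, edgeR adjusted p = 0.455) for Klf9 and 0.62 ± 0.23 (SE, edgeR adjusted p = 0.311) for Ramp3. None of the 7 members passed, where 73 of 6199 genes did (1.18%), with 1 residual degree of freedom, and 459 genes had an unadjusted p under 0.05. DESeq2 called 0 members and 1 gene in all. The other members lay between -0.05 and 0.18.

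**Figure D2:**
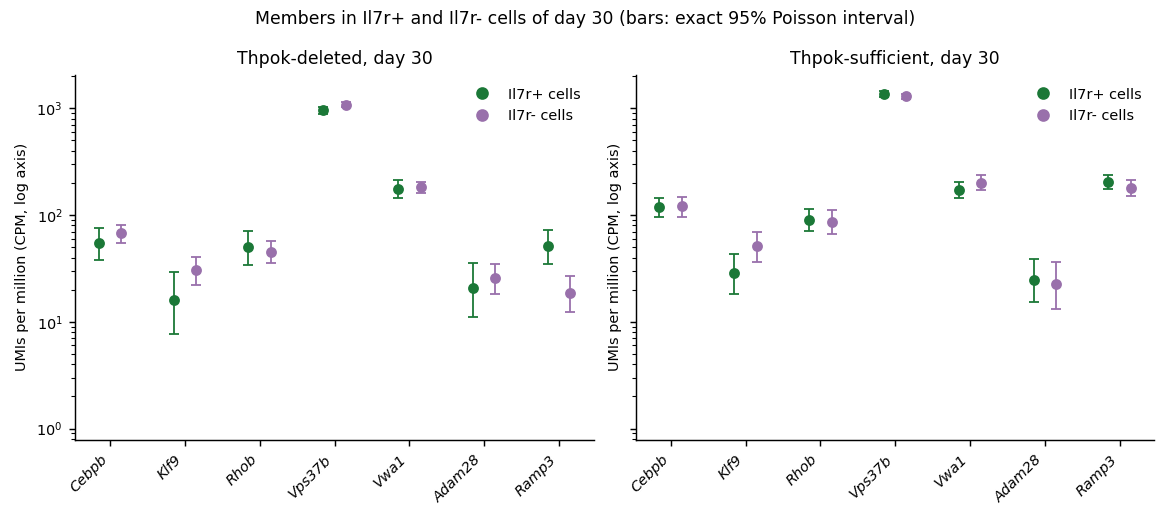
CPM of each member (log axis, exact 95% Poisson intervals) in Il7r+ and Il7r- cells of the Thpok-deleted and Thpok-sufficient libraries of day 30. Most pairs sit side by side. Klf9 is lower in Il7r+ cells of both libraries, with overlapping intervals, and Ramp3 is higher in Il7r+ cells of the Thpok-deleted library (51.4 against 18.4 CPM).

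At day 7 the Il7r+ class held 104 Thpok-deleted, 86 Thpok-sufficient and 79 wild type cells, which leaves few UMIs for most members. Vps37b had 253 CPM in Il7r+ and 215 CPM in Il7r- Thpok-deleted cells, 178 CPM in Il7r+ and 125.5 CPM in Il7r- Thpok-sufficient cells, and 242 CPM in Il7r+ and 202 CPM in Il7r- wild type cells. Il7r+ cells were the higher class in 3 of 3 libraries, with a log2 fold change of 0.32 ± 0.11 (SE, edgeR adjusted p = 0.339). None of the 6 members tested passed, where 43 of 9843 genes did (0.437%; 599 had an unadjusted p under 0.05). DESeq2 called 0 members and 3 genes. Adam28 did not pass the filter on low counts there. The Il7r effect at day 30 minus that at day 7 was -0.25 ± 0.14 (SE, edgeR adjusted p = 0.894) for Vps37b and -0.88 ± 0.60 (SE, adjusted p = 0.919) for Cebpb, and 0 of 7 members passed where 2 of 7175 genes did (0.0279%; 420 had an unadjusted p under 0.05, and DESeq2 called 0).

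In CD4-like cells of the total mix, Vps37b had 34.4 and 87.4 CPM in Il7r+ cells and 24.1 and 35.6 CPM in Il7r- cells of replicates 1 and 2. Ramp3 had 20.3 and 21.8 CPM in Il7r+ and 12.5 and 9.25 CPM in Il7r- cells. The Il7r+ class held 305 and 53 cells, with 23 and 5 UMIs of Ramp3. Intervals of the classes overlapped for Ramp3 in both replicates and for Vps37b in replicate 1. Vps37b and Ramp3 were higher in Il7r+ cells in 2 of 2 libraries. Their log2 fold changes were 0.81 ± 0.24 (SE, edgeR adjusted p = 0.184) and 0.84 ± 0.31 (SE, edgeR adjusted p = 0.276). Of the 3 members that passed the filter on low counts, the third being Vwa1, 0 passed the test, where 127 of 8524 genes did (1.49%; 1139 had an unadjusted p under 0.05). With no filter on low counts Vps37b passed (edgeR adjusted p = 0.0447). DESeq2 gave no adjusted p for these 3 members.

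Cells of the total mix with UMIs of Cd8a or Cd8b1 but none of Cd4 are called CD8-like, and those with the reverse CD4-like. The 2 classes were compared with the library as block, which gives the members' levels in both lineages at day 7. Of the 6 members tested, 1 was higher in CD8-like cells, where 1915 of 10203 genes were (18.8%), and 1 was lower, where 1987 were (19.5%). Vps37b had 43.8 and 52.5 CPM in CD8-like cells and 25.8 and 39.5 CPM in CD4-like cells of replicates 1 and 2. Its log2 fold change was 0.70 ± 0.11 (SE, edgeR adjusted p = 4.7e-09). The intervals of the classes were apart in replicate 1. In replicate 2 they overlapped slightly, at 47.0 to 58.5 CPM in CD8-like and 32.7 to 47.2 CPM in CD4-like cells. Ramp3 had 0.971 and 0.320 CPM in CD8-like cells and 13.8 and 10.2 CPM in CD4-like cells, a log2 fold change of -3.91 ± 0.30 (SE, edgeR adjusted p = 3.8e-36). Of the members tested, Ramp3 was the 1 that passed as lower in CD8-like cells. The test has 1 residual degree of freedom. Without the block Ramp3 passed (edgeR adjusted p = 0.00565) and Vps37b did not (edgeR adjusted p = 0.0838).

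Vwa1 had 13.5 and 16.6 CPM in CD8-like and 16.4 and 20.1 CPM in CD4-like cells, and did not pass (edgeR adjusted p = 0.372). Adam28 had 1.66 and 0.960 CPM in CD8-like and 2.61 and 2.96 CPM in CD4-like cells (edgeR adjusted p = 0.0942). Cebpb and Rhob had at most 12 UMIs in a CD4-like sum and 18 in a CD8-like sum, and Klf9 did not pass the filter on low counts.

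**Figure D3:**
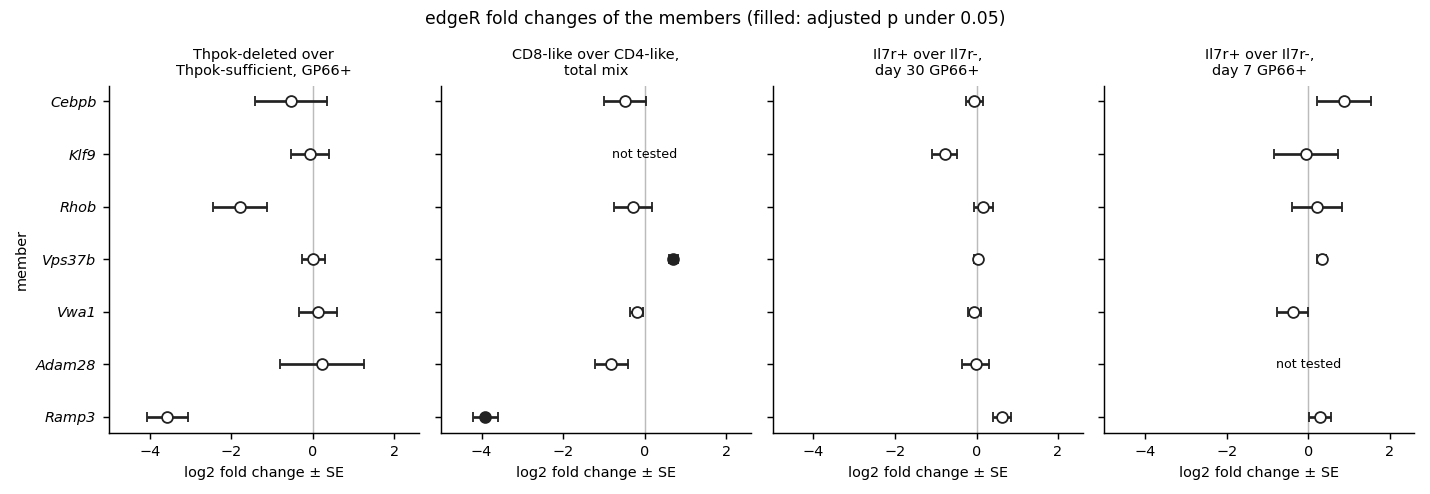
Log2 fold change ± SE (edgeR) of each member for Thpok-deleted over Thpok-sufficient GP66+ cells, CD8-like over CD4-like cells of the total mix, and Il7r+ over Il7r- GP66+ cells of day 30 and of day 7. Filled points, at an adjusted p under 0.05, are Vps37b (0.70) and Ramp3 (-3.91) in the lineage comparison.

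Among GP66+ cells of day 30, 177 of 736 Thpok-deleted and 212 of 725 Thpok-sufficient cells were CD4-like by their UMIs. Cells outside that class may still be CD4 cells whose Cd4 RNA was not detected. CD4-like GP66+ cells held the same gap in Ramp3 between genotypes. CD4-like cells of day 30 had 29.7 CPM in the Thpok-deleted library (18 UMIs) and 229 CPM in the Thpok-sufficient library (117 UMIs). At day 7 they had 1.73 CPM in the Thpok-deleted library, against 17.5 CPM in the Thpok-sufficient and 40.3 CPM in the wild type library. Cxcr6 encodes a receptor that marks Th1-type effectors among helper cells. Within libraries, cells with a Cxcr6 UMI had less Ramp3 than cells without one in 6 of 7 libraries. In the 2 libraries of the total mix both classes also hold CD8-like cells, so the split there is mixed with lineage. CD8-like cells had 0.971 and 0.320 CPM of Ramp3 there, against 13.8 and 10.2 CPM in CD4-like cells. In Thpok-sufficient cells of day 30 Ramp3 was at 77.5 CPM in 66 Cxcr6+ and 205 CPM in 659 Cxcr6- cells. In Thpok-deleted cells of day 30 it was at 16.9 CPM in Cxcr6+ and 36.9 CPM in Cxcr6- cells. The exception was the Thpok-deleted library of day 7, with 1.66 CPM in Cxcr6+ and 0.994 CPM in Cxcr6- cells on 12 UMIs in all. This split was chosen after values were seen and has no test.

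Other genes of the families of some members were set beside them. Counts by day below include the members, which were chosen on that contrast. Of 10 KLF genes compared, Klf9 included, 5 were more than 2-fold higher (log2 over 1) at day 30 in both genotypes, where 911 of 10949 genes were (8.32%). They include Klf4, at 93.9 CPM in Thpok-deleted and 150.2 CPM in Thpok-sufficient cells of day 30, against 10.5 to 20.7 CPM in the GP66+ libraries of day 7. Klf2, a factor of T cell quiescence and egress, had 1484 and 1721 CPM at day 30, against 406 CPM in Thpok-deleted, 762 CPM in Thpok-sufficient and 33.5 CPM in wild type cells of day 7. Of 7 genes of Cebpb's family and partners, Cebpb and Atf3, a stress-induced factor, were above that bound, and Cebpa and Cebpg were not.

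Of 7 genes of ESCRT-I compared, Vps37b was the 1 above log2 1 in both genotypes. Mvb12b, another subunit, was at log2 0.96 in Thpok-deleted and 1.39 in Thpok-sufficient cells, with 7.47 and 7.73 CPM at day 30 against 2.45 to 4.01 CPM at day 7. Vps37c, a paralogue of Vps37b, was at log2 1.40 in Thpok-deleted and -0.64 in Thpok-sufficient cells. The paralogue Vps37a had 29.0 and 25.8 CPM in Thpok-deleted and Thpok-sufficient cells of day 30, against 27.0 to 29.6 CPM at day 7. Adam28 was the 1 of 7 ADAM genes above it, and Adam10 had 41.1 and 37.4 CPM at day 30, against 34.6 to 37.9 CPM at day 7.

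Of the receptor partners of Ramp3, Calcrl, the calcitonin receptor-like receptor, had 10.3 CPM in Thpok-deleted and 2.58 CPM in Thpok-sufficient cells of day 30, against at most 5.88 CPM at day 7. The other accessory chain Ramp1 had 53.7 and 16.1 CPM at day 30, against 1.36 to 7.62 CPM at day 7, and was thus higher in Thpok-deleted cells of day 30 where Ramp3 was lower. The difference between the days in the genotype effect on Ramp1 was 3.64 ± 0.57 on the log2 scale (SE, edgeR adjusted p = 0.696). Of 4 genes of this system compared, Ramp1, Ramp3 and Calca were above log2 1 in both genotypes (8.32% of all genes). Ramp3 is in that count by the choice of the members, and Calca was near the floor in Thpok-sufficient cells. The ligand gene Calca had 10.7 CPM in Thpok-deleted and 1.93 CPM in Thpok-sufficient cells of day 30. In GP66+ cells of day 7 it had 0 CPM. The ligand gene Calcb had 1.40 CPM in Thpok-deleted cells of day 30 and at most 0.0802 CPM in the other GP66+ libraries. The ligand genes Adm and Adm2 had no UMI in any GP66+ library. Hspg2, Col6a1, Col6a2 and Nid1, matrix partners of Vwa1, had none there either.

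Of these lists, 1 gene passed the genotype test, Lamc1, a laminin chain of the matrix list (log2 fold change 2.48 ± 0.28 (SE), edgeR adjusted p = 0.0399). In the lineage comparison, 7 of 9 KLF genes tested were higher in CD8-like cells (18.8% of all genes) and 0 were lower (19.5% of all genes), with Klf11 at 1.53 ± 0.35 (SE, edgeR adjusted p = 6.8e-05). Of 7 ADAM genes 2 were higher and 1 was lower, shares near those of all genes, and of 3 tested genes of the receptor system 0 were higher and 3 were lower, Ramp1 and Calcrl with Ramp3. In the Il7r tests at day 30 and day 7 none of these family genes passed, and in that of the total mix Klf6 did, at 0.79 ± 0.13 (SE, edgeR adjusted p = 0.0253).

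The genes whose pattern was most like the mean of the members, over 9 sums (5 GP66+ libraries and the CD4-like and CD8-like cells of the total mix) and 6216 genes, were Gm20186 (Pearson r = 0.996), Amd1 (0.989), Amd2 (0.983), Wasl (0.983) and Btg2 (0.982). These correlations describe 9 sums that share libraries, and have no test. The members were chosen as higher at day 30 than at day 7. Their shared pattern, and the r values among them, therefore follow in large part from that choice. Btg2 had 769 CPM in Thpok-deleted and 894 CPM in Thpok-sufficient cells of day 30, against 146 to 190 CPM in GP66+ cells of day 7. Amd1 had 161 and 166 CPM at day 30, against 21.2 to 39.4 CPM at day 7. Amd1 and Amd2 are near copies, and reads may have been split between them. Among the members, Klf9 followed the mean of the others most closely (r = 0.966) and Ramp3 least (r = 0.664).

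Early-response genes moved with the members between the days. The 24 genes of that list, AP-1, Nr4a, Egr, heat shock and other genes that stress and cell dissociation also induce, summed to 12008 CPM in Thpok-deleted and 12776 CPM in Thpok-sufficient cells of day 30. At day 7 they summed to 2966 CPM in Thpok-deleted, 5960 CPM in Thpok-sufficient and 5259 CPM in wild type GP66+ cells, and in the total mix to 990 and 1641 CPM. Of the 24 genes, 20 were above log2 1 at day 30 in both genotypes (all genes 8.32%). Their part in the members' gain was not tested. A glucocorticoid response list had 8 of 12 genes above log2 1 (all genes 8.32%), Klf9 and Tsc22d3 included. It had 2 below -1 (all genes 5.04%), Mt1 and Mt2. Klf9 was chosen on this contrast, and the lists were made with earlier results of these data known, so nothing is read from these counts. Of the early-response list 0 genes were higher and 1 was lower in the genotype test, Socs3 (log2 fold change -1.02 ± 0.13 (SE), edgeR adjusted p = 0.0466). In the glucocorticoid list 1 gene was higher, Mt2, and 0 were lower. Of 20 cell cycle genes 17 were below -1 in both genotypes (all genes 5.04%).

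Within the day 30 libraries, cells were split at the library median of their early-response share. In Thpok-deleted cells, Rhob had 72.0 CPM in the cells with the higher share and 29.2 CPM in those with the lower share, and in Thpok-sufficient cells 137 and 47.0 CPM in the same order. Rhob thus differed more than 2-fold between the 2 sets of cells in both libraries, without overlap of the intervals. Klf9 had 42.3 CPM in the higher-share and 15.002 CPM in the lower-share set of Thpok-deleted cells, without overlap of the intervals, and 42.9 and 36.2 CPM, with overlap, in those of Thpok-sufficient cells. Vwa1 had 227 CPM in the higher-share and 147.7 CPM in the lower-share set of Thpok-deleted cells, and 224 and 153 CPM in those of Thpok-sufficient cells, without overlap in either library. Ramp3 had 29.7 CPM in the higher-share and 26.8 CPM in the lower-share set of Thpok-deleted cells, with overlap, and 238 and 153 CPM, without overlap, in those of Thpok-sufficient cells. Rhob, Vps37b and Vwa1 were thus apart in both libraries, Klf9 in the Thpok-deleted library and Ramp3 in the Thpok-sufficient library. Vps37b had 1251 CPM in the higher-share and 901 CPM in the lower-share set of Thpok-deleted cells, and 1466 and 1209 CPM in those of Thpok-sufficient cells. Cebpb had 121.7 CPM in the higher-share and 118.2 CPM in the lower-share set of Thpok-sufficient cells, and 78.8 and 52.9 CPM in those of Thpok-deleted cells. Adam28 had 35.4 CPM in the higher-share set of Thpok-deleted cells (31 UMIs), against 24.3 CPM in that whole library. It had 24.9 CPM in the higher-share and 22.9 CPM in the lower-share set of Thpok-sufficient cells. In the lower-share set the early-response list summed to 7788 CPM in Thpok-deleted and 7710 CPM in Thpok-sufficient cells, above each whole day 7 library. The higher-share set of Thpok-sufficient cells of day 7 had more, at 8130 CPM, with Rhob at 11.6 CPM and Vps37b at 150 CPM. In the lower-share sets of day 30 the members lay above every whole day 7 library except Ramp3 in Thpok-deleted cells (26.8 CPM). The days chose the members, and whether the early response accounts for their gain was not tested. The day 30 sets also differ in depth. The median was 2195 UMIs in the higher-share and 2819 in the lower-share set of Thpok-deleted cells. In Thpok-sufficient cells it was 1962 and 2171. Cells of that library were also split at the median of their mitochondrial share. Rhob had 126.7 CPM in the set with the higher mitochondrial share and 57.0 CPM in the other, without overlap of the intervals. Ramp3 had 239 and 153 CPM in the same order, without overlap, and Vps37b 1335 and 1324 CPM, with overlap. Which of these shares goes with Rhob was not tested.

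**Figure D4:**
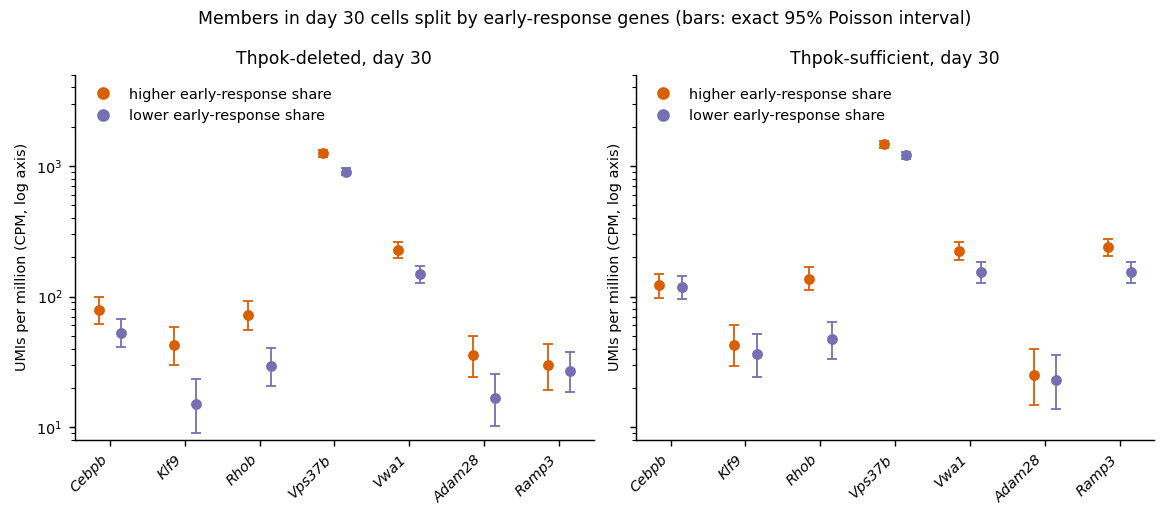
CPM of each member (log axis, exact 95% Poisson intervals) in day 30 cells with the higher and the lower share of early-response UMIs, for the Thpok-deleted and the Thpok-sufficient library. Rhob is more than 2-fold apart without overlap of the intervals in both libraries, and so is Klf9 in Thpok-deleted cells (42.3 and 15.002 CPM). Cebpb is at the same level in both sets of Thpok-sufficient cells (121.7 and 118.2 CPM).

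RNA outside cells was read from barcodes with 1 to 20 UMIs, near-empty droplets that held 8.99% of all UMIs of the Thpok-deleted and 12.6% of the Thpok-sufficient library of day 30, against 3.796% to 6.62% in the other libraries. Vps37b had 2335 CPM there in the Thpok-deleted and 2665 CPM in the Thpok-sufficient library of day 30, 2.24 and 2.01 times its level in cells. Ramp3 had 180.0 and 768 CPM there, 6.42 and 3.99 times its level in cells. For both genes the droplets were thus richer than the cells, also at day 7 in Thpok-sufficient and wild type libraries. Over genes with at least 20 CPM in cells, the median ratio was 1.22 in the Thpok-deleted and 1.14 in the Thpok-sufficient library of day 30. Rhob stood at 0.889 and 1.07 times its level in cells there, and Klf9 at 0.353 and 1.03 times. Cebpb, at 18.5 and 51.5 CPM, Vwa1, at 23.1 and 84.6 CPM, and Adam28, at 9.23 CPM and 0 UMIs (up to 11.03 CPM at 3 UMIs), were lower in the droplets than in cells of day 30. How much of the members' UMIs in cells came from free RNA was not tested.

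**Figure D5:**
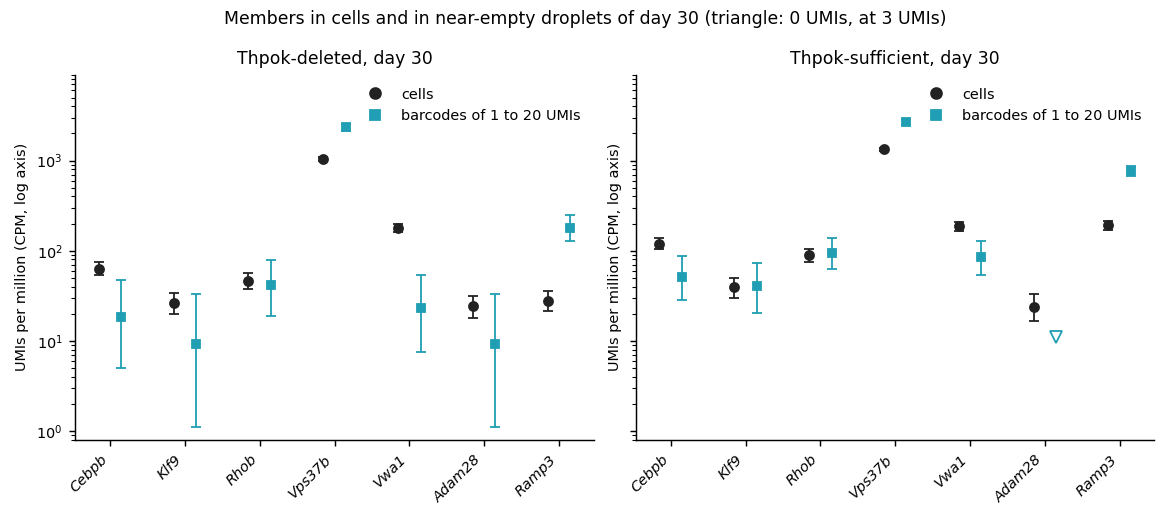
CPM of each member (log axis, exact 95% Poisson intervals) in cells and in barcodes of 1 to 20 UMIs of the Thpok-deleted and Thpok-sufficient libraries of day 30; an open triangle marks 0 UMIs. Vps37b and Ramp3 are higher outside the cells than in them, and Cebpb, Vwa1 and Adam28 are lower. Rhob is near its level in cells in both libraries, and Klf9 in the Thpok-sufficient library.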

How the data were processed

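The authors deposited raw UMI counts per gene and barcode, empty droplets included. They used bcl2fastq 2.17 and Cell Ranger, with mm10 as the build, per the submitters' processing notes, which name no Cell Ranger version. The chemistry was 10x 3' version 2, per the labels' protocols, with reads of 26x98 or 26x57 bases that are not assigned to libraries. Groups were taken from the labels. The members and gene lists were chosen with earlier results of these data known. Named genes are the members, Zbtb7b, Il7r, list genes that passed a test with up to 4 others, and the 5 genes most alike; the Cxcr6 split and the split by early-response share were added after values were seen.

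Barcodes counted as cells had UMI totals of at least 10% of a reference value, the 99th percentile among the 3000 largest barcodes in the well, 500 genes or more and no more than 10% of UMIs from mitochondrial genes. No doublet caller was run. A B-like and a myeloid-like cluster of the total mix (scanpy 1.11.5; 43 and 162 cells) were left out, 194 cells of replicate 1 and 11 of replicate 2. Kept cells held 1551772 to 31856169 UMIs per library. Sums of counts per class and library went into edgeR 4.0.16 (TMM, filterByExpr, quasi-likelihood test; Benjamini-Hochberg adjustment at 0.05), with DESeq2 1.42.0 as an alternative, in R 4.3.3. The genotype fit had a term for day. Lineage and Il7r fits had the library as block, because both classes came from the same capture, so the pairing comes from the design. The fits were tested on simulated data. The labels do not tie libraries to separate animals, so p-values reflect only how these libraries vary, which may be technical. Cebpd, Vps28 and Trac, on the lists, were not analysed here, and 1 of the gene lists is not reported here. Promoters are those of RefSeq on GRCm38.p6 (4 of 7 members matched), and coordinates those of GENCODE vM21 on GRCm38.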

Additional observations from a re-analysis of the deposited data

How the results depend on the processing

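Genes called numbered 120 for genotype, 0 for the interaction of genotype and day, 3902 for lineage, 73 for Il7r at day 30, 43 for Il7r at day 7, 127 for Il7r in the total mix, 2 for Il7r by day. With DESeq2 they numbered 473 for genotype, 6 for the interaction of genotype and day, 1383 for lineage, 1 for Il7r at day 30, 3 for Il7r at day 7, 51 for Il7r in the total mix, 0 for Il7r by day. With no filter on low counts they numbered 791 for genotype, 10 for the interaction of genotype and day, 433 for Il7r in the total mix, 13 for Il7r by day. With library totals alone they numbered 15 for Il7r at day 30, 298 for Il7r in the total mix. With cells called at 20% of the percentile they numbered 71 for genotype, 27 for Il7r at day 30. Without the replicate block they numbered 1144 for lineage, 1 for Il7r at day 30, 1 for Il7r at day 7, 1 for Il7r in the total mix. With cells thinned to 1500 UMIs they numbered 40 for Il7r at day 30, 2 for Il7r at day 7, 32 for Il7r in the total mix. Leaving out 1 library at a time gave 0 to 70 for Il7r by day, 5 to 120 for Il7r at day 7, 0 to 417 for genotype. With library totals alone the split of higher and lower calls moved to 86 and 25 for genotype (79 and 41 with TMM), 1403 and 2488 for lineage (1915 and 1987), 2 and 13 for Il7r at day 30 (52 and 21) and 135 and 163 for Il7r in the total mix (76 and 51). Members called were 0 for genotype, 2 with DESeq2 and 2 with no filter on low counts (Ramp3 and Rhob each time), and 0 to 2 with 1 library left out. For lineage they were 2, and 1 without the replicate block. For Il7r in the total mix they were 0, and 1 with no filter on low counts. For Il7r at day 30, Il7r at day 7, Il7r by day and the interaction no alternative run called a member. Both classes of a library came from 1 capture, and apart from these counts the replicate block changed no call of a member. Direction changed in 34 of the member values, none of them past the threshold, and the cause was not tested. For genotype the log2 fold changes were then Klf9 0.0057 with DESeq2, Klf9 0.0432 with library totals alone. With 1 library left out at a time the genotype values ranged over Cebpb -1.13 to 0.15 (turned without the Thpok-sufficient library of day 7 or the Thpok-sufficient library of day 30 or the Thpok-deleted library of day 30), Klf9 -0.80 to 0.60 (turned without the Thpok-sufficient library of day 7 or the Thpok-sufficient library of day 30 or the Thpok-deleted library of day 30), Vps37b -0.56 to 0.43 (turned without the Thpok-sufficient library of day 7 or the Thpok-deleted library of day 7), Vwa1 -0.26 to 0.54 (turned without the wild type library or the Thpok-deleted library of day 7), Adam28 -0.24 to 1.02 (turned without the wild type library or the Thpok-deleted library of day 7). For Il7r at day 30 the log2 fold changes were then Cebpb 0.024 without the replicate block, Rhob -0.23 with thinned cells, Vps37b -0.0495 with library totals alone, Vwa1 0.0546 with thinned cells, Adam28 0.00896 with DESeq2, Adam28 0.0108 without the replicate block. With 1 library left out at a time the Il7r at day 30 values ranged over Cebpb -0.24 to 0.0935 (turned without the Thpok-deleted library of day 30), Vps37b -0.11 to 0.19 (turned without the Thpok-sufficient library of day 30), Vwa1 -0.11 to 0.0215 (turned without the Thpok-sufficient library of day 30), Adam28 -0.24 to 0.23 (turned without the Thpok-deleted library of day 30). For Il7r at day 7 the log2 fold changes were then Klf9 0.0719 with DESeq2, Vwa1 0.55 with thinned cells, Ramp3 -0.14 with thinned cells. With 1 library left out at a time the Il7r at day 7 values ranged over Klf9 -0.60 to 0.65 (turned without the Thpok-deleted library of day 7), Rhob -0.14 to 0.99 (turned without the Thpok-deleted library of day 7). With 1 library left out at a time the Il7r in the total mix values ranged over Vwa1 -0.19 to 0.65 (turned without replicate 1 of the total mix). For Il7r by day the log2 fold changes were then Rhob 0.00401 with no low count filter. With 1 library left out at a time the Il7r by day values ranged over Rhob -0.76 to 0.32 (turned without the wild type library or the Thpok-deleted library of day 7), Adam28 -0.67 to 0.23 (turned without the Thpok-deleted library of day 7). The median log2 of day 30 over day 7 of the members was 3.96, and 2.92 to 4.35 under the alternatives for it, among them cells of 1500 to 3000 UMIs, a choice made after the data were seen. Fits that leave 1 library of 2 have no residual degrees of freedom and give a value with no test. Each genotype has 1 library at day 30, and Adam28 and Klf9 rest on 37 to 61 UMIs per library there.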
